A study of Mus musculus with 8 samples.

Results

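Rag1, Rag2, Dntt, Ptcra, Cd24a, Sox4, Arpp21 and Cd1d1 are 8 genes that thymocytes use while their antigen receptors are being assembled or shortly afterward. They were chosen by name, as genes of double-positive (DP) and early single-positive thymocytes, and are 8 of the 47937 genes counted. Their RNA was measured in CD8 single-positive (CD8SP) thymocytes sorted as TCRb+ and MHC-I high, a gate for mature cells. Ndrg3 ctrl mice carried the genotype Ndrg3 +/fl;Lck-cre+, and Ndrg3 TKO mice carried Ndrg3 fl/fl;Lck-cre+. Both groups were 6 to 7 weeks old, and the material came from the thymus. Each group had 4 libraries, 1 per mouse. Both groups carried Cre, driven by the proximal Lck promoter, which acts from early thymocyte stages, and the control mice had 1 floxed allele, so each comparison is with a heterozygous floxed control and not with a Cre-free mouse.

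RAG1 and RAG2 together form the recombinase that cuts DNA at the V, D and J segments of the T cell receptor genes, and the broken ends are rejoined by the general end-joining machinery. DP thymocytes recombine the alpha locus until a receptor signals positive selection, after which expression of the recombinase is shut off and the cells mature as single-positive cells. Transcripts of this program in sorted CD8SP cells are therefore used as a measure of maturation stage. In bulk RNA, fewer cells with a transcript and less of the transcript per cell cannot be told apart.

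Total counts per library lay between 21126698 and 32668081, and their median was 27972527.5 for the Ndrg3 ctrl libraries and 31022668.5 for the Ndrg3 TKO libraries. Their means were 26780000 and 31103100 (p = 0.0571, exact permutation test of the difference in means, 2-sided, n = 4 per group, where the smallest p possible is 0.0286). A limit of 3 counts corresponded to 0.0918 to 0.142 CPM (counts scaled to the library total) in these libraries, and such limits cover counting error only. Levels are given as normalized CPM, for which the library totals were first scaled by edgeR's TMM factors. Changes are log2 fold changes of Ndrg3 TKO over Ndrg3 ctrl from edgeR's quasi-likelihood test, with the standard error (SE) and a Benjamini-Hochberg adjusted p over the 14633 genes with enough counts.

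The sort and the genotype were checked first. Cd8a, which encodes the CD8 alpha chain, was at 1367 ± 19.2 normalized CPM in Ndrg3 ctrl and 1351 ± 33.6 in Ndrg3 TKO (mean ± SD, n = 4). Cd4 was at 1.48, 0.246, 0.474 and 0.475 normalized CPM in Ndrg3 ctrl replicates 1 to 4 and at 0.762, 0.565, 0.468 and 0.461 in Ndrg3 TKO replicates 1 to 4. Cd4 was thus close to absent in all 8 libraries, and its highest value was in Ndrg3 ctrl replicate 1. Of 8 CD8 T cell identity genes 7 were tested, and of 4 CD4 lineage genes 3, of which Foxp3 was the most abundant (4.21 normalized CPM over all libraries), and none passed the threshold. Ndrg3 itself was at 79.3, 81.5, 81.2 and 80.9 normalized CPM in Ndrg3 ctrl and at 50.4, 48.5, 53.1 and 55.3 in the Ndrg3 TKO libraries, which gave a log2 fold change of −0.64 (SE 0.053, adjusted p = 1.04e-05, edgeR). The floxed part is a single exon, so counts over the whole gene, which held 0.642 times the control level, do not measure its removal alone. Eomes, a T-box transcription factor of CD8 T cells, fell by 1.26 on the log2 scale (SE 0.14, adjusted p = 1.70e-04, edgeR), from 15.2 ± 2.40 to 6.36 ± 1.00 normalized CPM.

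The libraries also differed in a way that the labels do not name. Ndrg3 ctrl replicate 2, Ndrg3 TKO replicate 2 and Ndrg3 TKO replicate 3 held 340.5, 379.4 and 416.3 CPM of 4 Y-linked genes, whereas the other 5 libraries held at most 0.0752 CPM. The labels give no sex, and the paper's methods state that mice of both sexes were used. By these counts the 3 named libraries came from male mice, so sex was not balanced between the groups. Results that change when only those 5 libraries are used are given with both values.

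The 8 genes covered a wide range of levels in the mature CD8SP cells. Per kilobase of exon, Sox4 was at 42.6 normalized CPM over the 8 libraries, Cd1d1 at 11.4, Cd24a at 9.31 and Dntt at 8.03. Rag1 was at 0.434 and Arpp21 at 0.314 normalized CPM per kilobase, and Ptcra and Rag2 were lowest at 0.0298 and 0.0232. Sox4 stood above the other 7 genes in every library, its lowest library reaching 35.8 and the highest Cd1d1 library 12.9 normalized CPM per kilobase. The ranges of Cd1d1, Cd24a and Dntt over the libraries overlapped, although Cd1d1 stood above Cd24a within each of the 8 libraries. Those of Rag1 and Arpp21 overlapped, as did those of Ptcra and Rag2. Among 14568 tested genes with a length, Sox4 lay at percentile 92.9, Cd1d1 at 67.6, Cd24a at 61.8 and Dntt at 57.5, while Rag1 lay at 9.99 and Arpp21 at 7.52. The level of Arpp21 per kilobase rests on the 17428 bases of exon that its 31 annotated transcripts cover together, more than any 1 transcript holds.

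**Figure D1:**
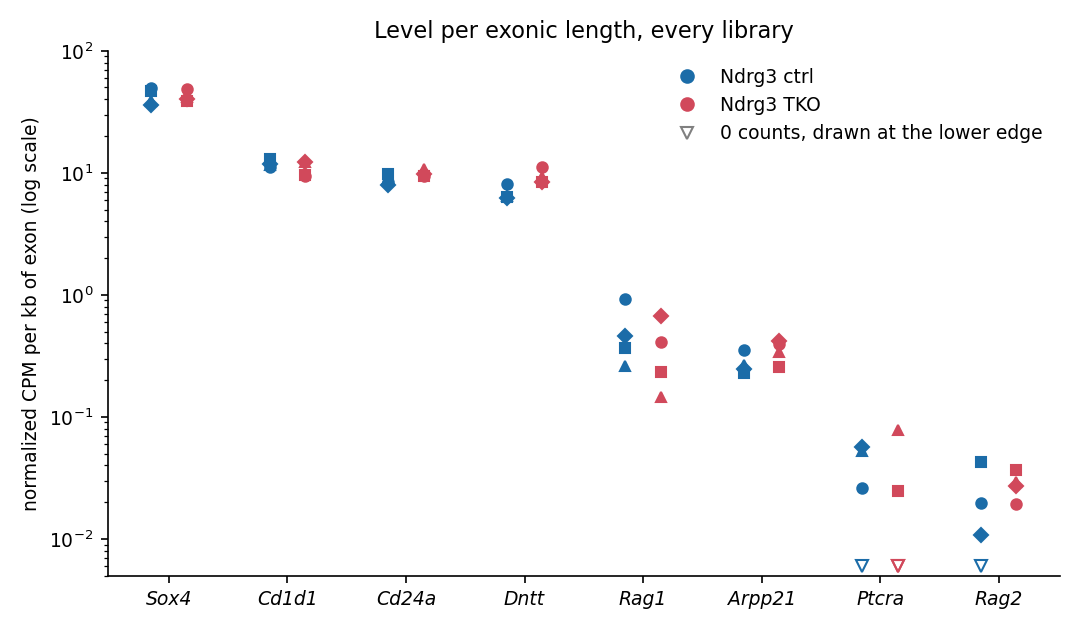
Level of each gene in every library, in normalized CPM per kilobase of exon on a log scale, with blue for Ndrg3 ctrl, red for Ndrg3 TKO and symbol shapes for replicates 1 to 4. Sox4 was highest at 42.6 over all libraries, a middle set of 3 genes lay between 8.03 and 11.4, and Ptcra and Rag2 lay at or near 0 counts, drawn at the lower edge where a library had none.

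None of the 8 genes passed the threshold of 0.05 in the edgeR test, in which 1.15% of all tested genes did, 0.793% higher and 0.355% lower in Ndrg3 TKO. Rag2 and Ptcra had too few counts to be tested. Of the 6 tested genes, 3 had a log2 fold change above 0 and 3 below, with a median of 0.072 against −0.0033 over all tested genes. At an unadjusted p below 0.05 only Dntt passed, and DESeq2 called 1 of the genes, Dntt, among 309 in the whole table. The share of all tested genes at an unadjusted p below 0.05 was 10.9%.

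**Figure D2:**
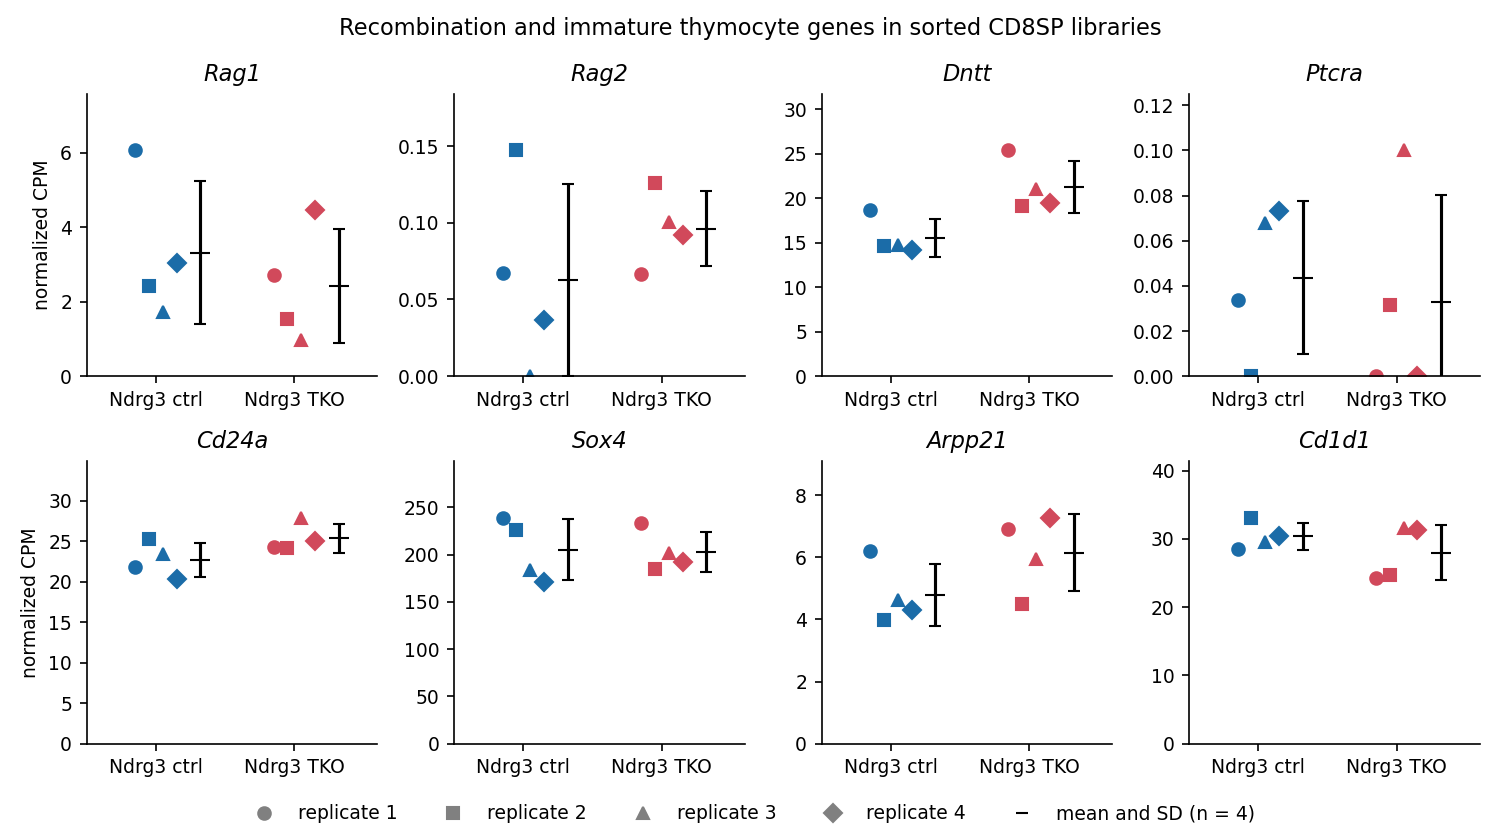
Normalized CPM of each of the 8 genes in every library of Ndrg3 ctrl (blue) and Ndrg3 TKO (red), with bars for mean and SD (n = 4), cut off at 0 where they would go below it; each panel has its own scale from 0. In the Dntt panel the 4 Ndrg3 TKO libraries, between 19.2 and 25.4, all lie above the highest Ndrg3 ctrl library at 18.7, and in the other 7 panels the groups overlap.

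Rag1 encodes the subunit of the recombinase that holds its active site. The gene (ENSMUSG00000061311) lies on chromosome 2 from 101638282 to 101649501 on the minus strand (GRCm38), and Rag2 (ENSMUSG00000032864) lies next to it from 101624718 to 101632529 on the plus strand. The promoters of Rag1, Rag2 and Dntt are shown because the first pair are neighbours that are used together but differed widely in level, and Dntt was the gene whose groups did not overlap. Each is the 250 bases before the transcription start given by RefSeq (GRCm38.p6), 5′ to 3′ on the gene's own strand, and capitals mark the E-box CANNTG, the motif that E proteins of lymphocytes recognize and which reads the same way on both strands. The windows are chr2:101649533-101649782 for Rag1, chr2:101624462-101624711 for Rag2 and chr19:41029025-41029274 for Dntt.
Rag1: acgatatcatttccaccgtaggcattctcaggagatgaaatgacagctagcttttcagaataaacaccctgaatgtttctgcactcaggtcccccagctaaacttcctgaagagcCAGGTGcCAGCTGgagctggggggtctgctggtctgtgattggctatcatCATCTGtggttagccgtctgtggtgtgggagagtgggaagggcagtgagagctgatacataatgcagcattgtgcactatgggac
Rag2: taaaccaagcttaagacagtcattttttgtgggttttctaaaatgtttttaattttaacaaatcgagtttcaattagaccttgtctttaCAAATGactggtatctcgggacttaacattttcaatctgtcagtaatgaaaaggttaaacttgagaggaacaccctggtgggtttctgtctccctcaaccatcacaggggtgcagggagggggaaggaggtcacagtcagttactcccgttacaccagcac
Dntt: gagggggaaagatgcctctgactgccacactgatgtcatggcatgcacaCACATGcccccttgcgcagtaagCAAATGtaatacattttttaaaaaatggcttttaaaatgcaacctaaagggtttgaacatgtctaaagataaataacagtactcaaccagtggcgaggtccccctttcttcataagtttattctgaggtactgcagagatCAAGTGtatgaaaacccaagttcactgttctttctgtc
Rag1 and Dntt each had 3 E-boxes in this window, Rag2 had 1, and Ptcra had 2. The promoters of Sox4 and Arpp21 are not counted here, so these counts do not describe all genes with an entry. Of 32851 promoters of the same length, 66.2% held at least 1 E-box, 31.8% at least 2 and 12.2% at least 3. A match describes the letters only, and 6 of the 8 genes had a promoter entry, Cd24a and Cd1d1 being the genes without one.

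Rag1 was at 6.07, 2.41, 1.73 and 3.04 normalized CPM in Ndrg3 ctrl replicates 1 to 4 and at 2.72, 1.54, 0.969 and 4.45 in Ndrg3 TKO replicates 1 to 4. The groups overlapped, with Ndrg3 ctrl replicate 1 highest, Ndrg3 TKO replicate 4 next and Ndrg3 TKO replicate 3 lowest. The log2 fold change was −0.46 (SE 0.55, adjusted p = 0.823, edgeR), and its 95% interval ran from −1.74 to 0.83, so that a fall to 0.299 times and a rise to 1.77 times the control level were both within it. Without Ndrg3 ctrl replicate 1 the log2 fold change was 0.029, and with only the 5 libraries low in Y-linked counts it was −0.0088, so the direction depended on which libraries were used.

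Rag1 had the widest spread of the 6 tested genes, with a coefficient of variation of 57.9% among the Ndrg3 ctrl libraries and 63.6% among the Ndrg3 TKO libraries. Cd24a, the steadiest in Ndrg3 TKO, had 9.26% and 6.99%. Rag1 and Cd4, which are both products of DP cells, were each highest in Ndrg3 ctrl replicate 1, whereas the second highest Rag1 library, Ndrg3 TKO replicate 4, held 0.461 normalized CPM of Cd4, among the low values. Whether DP cells in the sort contributed to the Rag1 values was not tested.

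Over the 8 libraries, the 5 tested genes whose log2 CPM followed that of Rag1 most closely were Slfnl1 (Pearson r = 0.970), Gm16299 (r = 0.961), Mkrn2 (r = 0.959), 4930599N23Rik (r = 0.947) and 2700099C18Rik (r = 0.933). This ranking is a description over 8 libraries, within each of which all genes share 1 depth and 1 cell preparation. The 5 genes were picked as the highest of the 14633 tested, and how high such values run by chance was not tested. Slfnl1 was low, from 0.200 normalized CPM in Ndrg3 TKO replicate 3 to 0.637 in Ndrg3 ctrl replicate 1. Gm16299 ran from 2.54 normalized CPM in Ndrg3 TKO replicate 3 to 10.2 in Ndrg3 ctrl replicate 1, the same libraries that were lowest and highest for Rag1. Mkrn2 covered only 48.3 to 55.5 normalized CPM between the same libraries.

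Rag2, the second recombinase subunit, had 2, 3, 0 and 1 counts in Ndrg3 ctrl and 2, 4, 3 and 3 counts in Ndrg3 TKO, 18 counts in all. Rag1, in contrast, had 181, 49, 51 and 83 counts in Ndrg3 ctrl and 82, 49, 29 and 145 in Ndrg3 TKO. Per kilobase of exon over all libraries, Rag1 was 18.7 times as high as Rag2. At this depth a difference between the groups in Rag2 was not detectable. Both genes overlap exons of B230118H07Rik, a gene on the minus strand with 5 to 16 counts per library, so that part of these few reads cannot be assigned with certainty.

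Ptcra encodes the pre-TCR alpha chain, which pairs with a new TCR beta chain in double-negative (DN) thymocytes before the alpha locus is rearranged. The gene (ENSMUSG00000036858) lies on chromosome 17 from 46755663 to 46763712 on the minus strand. It had 1, 0, 2 and 2 counts in Ndrg3 ctrl and 0, 1, 3 and 0 counts in Ndrg3 TKO, 9 counts in all and no more than 3 in any library. Ptcra was therefore at or below the 3-count limit in every library of both groups, and no fold is given.

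Dntt encodes terminal deoxynucleotidyl transferase (TdT), which adds nucleotides without a template to the ends being joined and so widens receptor diversity. The gene (ENSMUSG00000025014) lies on chromosome 19 from 41029275 to 41059525 on the plus strand, overlaps no other annotated gene, and none of its 2290 exonic 50-base words occurs in a transcript of another gene. Dntt was at 18.7, 14.6, 14.8 and 14.2 normalized CPM in Ndrg3 ctrl replicates 1 to 4, from 297 to 558 counts. It was at 25.4, 19.2, 21.04 and 19.4 normalized CPM in Ndrg3 TKO replicates 1 to 4, from 610 to 767 counts.

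Every Ndrg3 TKO library lay above every Ndrg3 ctrl library for Dntt, and it was the only 1 of the 8 genes whose groups did not overlap. Groups did not overlap for 7.04% of all tested genes, 3.44% with Ndrg3 TKO higher and 3.59% with Ndrg3 TKO lower. The group means were 15.6 ± 2.12 and 21.3 ± 2.90 normalized CPM (SD, n = 4), a ratio of 1.37. The log2 fold change was 0.45 (SE 0.11, 95% interval 0.21 to 0.68), with an unadjusted p of 0.00116 and an adjusted p of 0.0783 by edgeR's quasi-likelihood test, at rank 216 of the tested genes. Dntt thus missed the threshold in that test. Among the settings without a replicate block it passed with DESeq2 (adjusted p = 0.0156) and, in edgeR, without the filter on low counts (0.00626). It also passed in edgeR with Y-linked expression as a covariate (0.0271) and without Ndrg3 ctrl replicate 1 (0.0285). With a replicate block, which the labels do not call for, Dntt passed too (log2 fold change 0.45, adjusted p = 5.33e-04, edgeR).

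The size of the Dntt difference moved little between settings while its adjusted p lay on both sides of the threshold. Leaving out single libraries gave log2 fold changes between 0.35 and 0.55 and adjusted p between 0.0285 and 0.216. With only the 5 libraries low in Y-linked counts the log2 fold change was 0.50 and the adjusted p = 0.216 (edgeR). Replicate 1 was the highest library for Dntt in both groups.

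**Figure D3:**
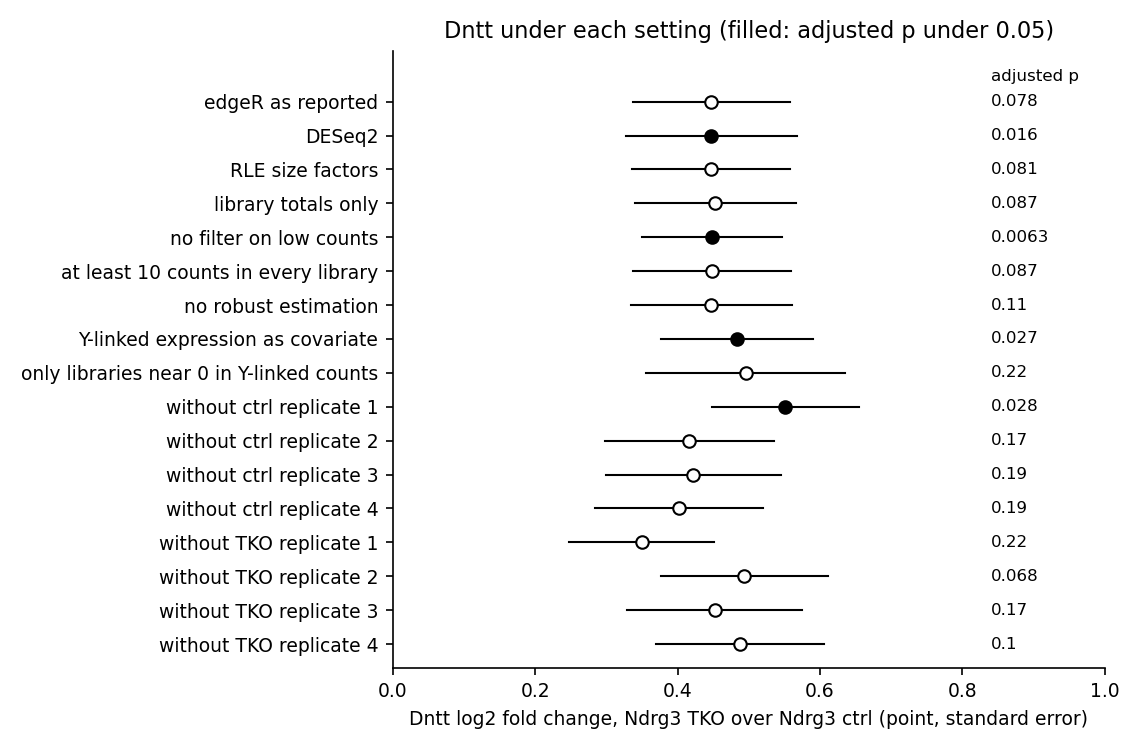
Log2 fold change of Dntt in Ndrg3 TKO over Ndrg3 ctrl under the reported setting and 16 others, all without a replicate block, with bars for the standard error, filled points for an adjusted p below 0.05 and the adjusted p at the right. All 17 points lie to the right of 0, between 0.35 and 0.55, and 4 of them are filled.

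Markers of other cells that use these genes were read beside Dntt. B-lineage progenitors also express Rag1, Rag2 and Dntt. The summed normalized CPM of 9 B-lineage markers was 12.7, 13.9, 11.8 and 13.9 in Ndrg3 ctrl and 9.78, 10.05, 9.32 and 10.04 in Ndrg3 TKO, lower in all 4 Ndrg3 TKO libraries. Most of this sum was Cd79b, at a mean of 11.8 normalized CPM in Ndrg3 ctrl and 8.73 ± 0.528 (SD) in Ndrg3 TKO libraries (log2 fold change −0.43, SE 0.099, adjusted p = 0.0529, edgeR), and the remaining 8 markers summed to 0.841 to 1.81 normalized CPM, with overlapping groups. Ms4a1, which encodes CD20, had no counts in any library, and Vpreb1, a surrogate light chain of B cell progenitors, was at 0.492 ± 0.198 and 0.337 ± 0.0601 normalized CPM.

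The summed normalized CPM of 7 markers of gamma delta and natural killer T (NKT) cells was 39.6, 44.2, 44.1 and 40.3 in Ndrg3 ctrl and 49.3, 46.4, 56.1 and 49.7 in Ndrg3 TKO, higher in all 4 Ndrg3 TKO libraries. Of these 4 were tested and 1, Klrb1c, rose, against 0.793% of all tested genes. The most abundant gene was Cd160. Without it the sums of the groups overlapped, at 11.6 to 15.4 normalized CPM in Ndrg3 ctrl and 12.9 to 16.8 in Ndrg3 TKO. By tetramer staining, the paper found invariant NKT cells nearly gone from the thymus of Ndrg3 TKO mice. That is a count of stained cells, whereas the sums are RNA of the CD8SP sort. Trdc, which encodes the delta chain constant region, was at 12.1 ± 1.71 and 11.9 ± 1.55 normalized CPM. Zbtb16, the defining factor of NKT cells, named after its values were seen, was too low to be tested. It had 10, 6, 6 and 4 counts in Ndrg3 ctrl and 2, 1, 1 and 3 in Ndrg3 TKO. All 4 Ndrg3 TKO libraries were thus at or below the 3-count limit. Its levels were 0.335, 0.295, 0.203 and 0.146 normalized CPM in Ndrg3 ctrl and 0.0663, 0.0314, 0.0334 and 0.0921 in Ndrg3 TKO. The groups did not overlap, as for 3.59% of all tested genes with Ndrg3 TKO lower. Among the gamma chain genes, which were not on this list and are named after their values were seen, Tcrg-C1, Tcrg-C2 and Tcrg-C4 rose. Their log2 fold changes were 2.72 (adjusted p = 2.37e-05), 4.99 (3.51e-06) and 3.15 (1.72e-07, edgeR), whereas that of Trdc was −0.031 (adjusted p = 0.954, edgeR). The part of these cells in the Dntt difference was not tested, nor was that of the deeper Ndrg3 TKO libraries. Myeloid and dendritic markers summed to 13.9 to 22.8 normalized CPM per library, mostly Cd74, and none of 4 tested passed the threshold. Epithelial and stromal markers summed to 148 to 179 normalized CPM per library, of which all but 2.49 to 5.31 was Pecam1, a gene that T cells also express. Erythroid markers summed to at most 0.232 normalized CPM, with Alas2 the most abundant and 4 of the 6 at 0 counts.

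Cd24a encodes heat-stable antigen, a surface glycoprotein that is high on immature thymocytes and is lost as single-positive cells mature. The gene (ENSMUSG00000047139) lies on chromosome 10 from 43578284 to 43584265 on the plus strand. It was at 21.9, 25.3, 23.4 and 20.3 normalized CPM in Ndrg3 ctrl and at 24.2, 24.1, 27.9 and 25.1 in Ndrg3 TKO. The groups overlapped, with 1 Ndrg3 TKO library above all controls. A log2 fold change of 0.16 was fitted (SE 0.080, 95% interval −0.012 to 0.33, adjusted p = 0.498, edgeR), so a rise of more than 1.26 times was outside the interval. Gm6212 shared 2.75% of the exonic 50-base words of Cd24a.

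Sox4 encodes a SoxC transcription factor of lymphocyte progenitors and developing T cells. The gene (ENSMUSG00000076431) lies on chromosome 13 from 28948919 to 28953713 on the minus strand and has a single exon. It was at 239, 226, 184 and 172 normalized CPM in Ndrg3 ctrl and at 233, 185, 202 and 192 in Ndrg3 TKO. The Ndrg3 TKO libraries all lay inside the range of the controls. The log2 fold change was −0.02 (SE 0.11, 95% interval −0.26 to 0.23, adjusted p = 0.977, edgeR), and its sign turned under 5 of the 17 other settings, with values up to 0.10. On the opposite strand the exon of Sox4 overlaps Gm26735, which shares 54.1% of its 50-base words and was itself at 31 to 62 counts per library, or at most 2.08 normalized CPM. The library kit keeps strand, but the strand setting of the counting is not given in the sources used here, so reads of the pair cannot be told apart with certainty. Of its relatives, Sox12 was at 12.7 ± 3.33 and 12.9 ± 2.49 normalized CPM, and Sox11 had no counts.

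Arpp21 encodes a phosphoprotein that binds RNA and is abundant in DP thymocytes, and its introns host the microRNA gene Mir128-2. The gene (ENSMUSG00000032503) lies on chromosome 9 from 112065091 to 112235938 on the minus strand. It was at 6.20, 3.98, 4.64 and 4.32 normalized CPM in Ndrg3 ctrl and at 6.89, 4.49, 5.95 and 7.28 in Ndrg3 TKO. The groups overlapped, with 2 Ndrg3 TKO libraries above all controls. The fitted log2 fold change was 0.35 (SE 0.17, 95% interval −0.016 to 0.73, adjusted p = 0.482, edgeR). An interval this wide holds both no change and a rise to 1.65 times the control level.

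Cd1d1 encodes the CD1d molecule with which DP thymocytes present lipids to developing NKT cells. The gene (ENSMUSG00000028076) lies on chromosome 3 from 86995834 to 86999441 on the minus strand. It was at 28.5, 33.1, 29.6 and 30.4 normalized CPM in Ndrg3 ctrl and at 24.3, 24.7, 31.6 and 31.3 in Ndrg3 TKO. Replicates 1 and 2 of Ndrg3 TKO lay below all controls, and replicates 3 and 4 lay within their range. The log2 fold change was −0.12 (SE 0.093, 95% interval −0.32 to 0.083, adjusted p = 0.703, edgeR). The neighbouring copy Cd1d2, annotated as a polymorphic pseudogene, shares 19.1% of the 50-base words of Cd1d1, so the split of reads between them is uncertain. Per kilobase of exon over all libraries, Cd1d1 was 7.11 times as high as Cd1d2, which was at 2.19 ± 0.419 and 2.70 ± 0.748 normalized CPM (adjusted p = 0.675, edgeR).

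**Figure D4:**
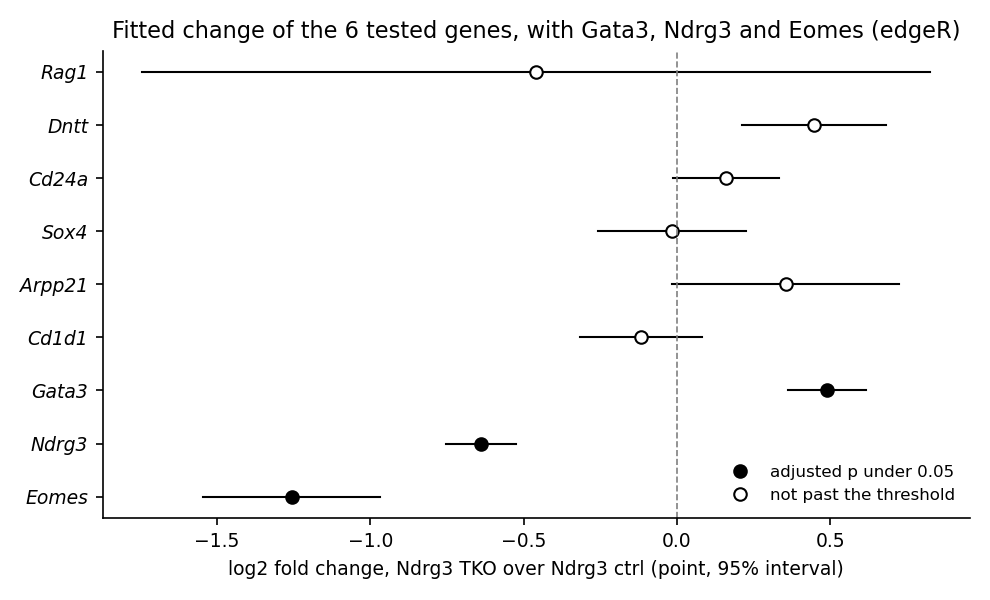
Log2 fold change of Ndrg3 TKO over Ndrg3 ctrl with its 95% interval for the 6 tested genes and, for scale, Gata3, Ndrg3 and Eomes, with filled points for an adjusted p below 0.05. Only the 3 genes for scale are filled, the interval of Dntt runs from 0.21 to 0.68, and that of Rag1 is the widest, from −1.74 to 0.83.

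The 6 tested genes did not vary as a single unit across the libraries. Once each group's mean had been removed, 9 of the 15 gene pairs had a Pearson r above 0 over the 8 libraries, with a median of 0.298. Dntt and Sox4 had the highest value (r = 0.806), followed by Rag1 and Arpp21 (r = 0.702) and by Dntt and Arpp21 (r = 0.683). Rag1 and Cd24a had the lowest (r = −0.50). These values describe 8 libraries, whose depth the genes share, and were not tested.

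Lists of genes around the same steps were read beside the 8 genes, each by its count and median. Of 17 genes of V(D)J cleavage and end joining, all 17 were tested and none passed the threshold in either direction, with 6 log2 fold changes above 0 and 11 below and a median of −0.035. Atm and Prkdc, kinases that respond to the broken ends, were the most abundant of the list, at 256 ± 17.1 and 172 ± 22.6 normalized CPM in Ndrg3 ctrl and 248 ± 3.25 and 168 ± 11.6 in Ndrg3 TKO. Chosen after their values were seen, the polymerases mu and lambda, which fill gaps at the joints, were the 2 genes of the 17 whose groups did not overlap, lower in Ndrg3 TKO as for 3.59% of all tested genes. Polm was at 35.3 ± 2.98 and 30.4 ± 0.917 normalized CPM (log2 fold change −0.22, SE 0.068, adjusted p = 0.201, edgeR). Poll was at 16.1 ± 0.406 and 14.0 ± 0.632 normalized CPM (log2 fold change −0.20, SE 0.076, adjusted p = 0.331, edgeR).

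Of 16 factors that regulate Rag expression or T cell progenitors, all were tested, 1 rose and none fell, against 0.793% and 0.355% of all tested genes, with a median log2 fold change of 0.017. The gene that rose was Gata3, a zinc finger factor that T cell development requires from its earliest steps. Gata3 was at 62.2, 59.6, 56.8 and 55.9 normalized CPM in Ndrg3 ctrl and at 89.9, 80.5, 82.2 and 76.2 in Ndrg3 TKO. The groups were well apart, with a log2 fold change of 0.49 (SE 0.059, adjusted p = 5.25e-04, edgeR), and Gata3 passed the threshold under all 17 other settings. Satb1 and Tcf7, the most abundant of the list, differed by 0.022 (SE 0.073) and 0.016 (SE 0.063) on the log2 scale.

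Of 17 genes of the DP stage, 16 were tested, none rose and 1 fell, against 0.355% of all tested genes that fell, with a median log2 fold change of 0.011. Plxnd1, a semaphorin receptor of DP thymocytes, was the gene that fell, by 0.61 on the log2 scale (SE 0.11, adjusted p = 0.0166, edgeR), from 24.5 ± 0.712 to 16.1 ± 3.12 normalized CPM. It lost the threshold without Ndrg3 ctrl replicate 1 (adjusted p = 0.0682), without Ndrg3 ctrl replicate 3 (0.0620), without Ndrg3 TKO replicate 3 (0.0566) and with only the 5 libraries low in Y-linked counts (0.244), with log2 fold changes of −0.58 to −0.61 in these fits. Of 13 DN genes, 7 were tested and none passed, with a median of −0.065 and Notch1 and Dtx1 the most abundant, while 6 had at most 3 counts in any library and Gfi1b had none. Of 10 genes of the pre-TCR and CD3 complex and its kinases, all 10 were tested and none passed, with a median of −0.018 and Cd3e and Lck the most abundant.

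Genes of early and of late single-positive cells held 1 gene each that fell, beside the same 0.355% of all tested genes. Of 12 early single-positive genes, all tested, Egr1, an immediate early factor of receptor signaling, fell by 0.43 on the log2 scale (SE 0.089, adjusted p = 0.0422, edgeR) from 208 ± 23.7 to 155 ± 16.4 normalized CPM, and the list's median was −0.093. Egr1 lost the threshold when any of Ndrg3 ctrl replicates 1, 2 and 3 or Ndrg3 TKO replicates 2, 3 and 4 was left out, with an adjusted p up to 0.134, and with only the 5 libraries low in Y-linked counts (0.192), at log2 fold changes of −0.36 to −0.45. Of 17 mature single-positive genes, all tested, Cd55, a regulator of complement, fell by 0.75 (SE 0.14, adjusted p = 0.0152, edgeR) from 6.34 ± 0.645 to 3.77 ± 0.565 normalized CPM, and the median of the list was −0.046. It lost the threshold without Ndrg3 ctrl replicate 1 (0.0715), without Ndrg3 TKO replicate 3 (0.0621) and with only the 5 libraries low in Y-linked counts (0.132), at log2 fold changes of −0.61 to −0.69. The most abundant of the early list were Ccr9 and Ccr7, and those of the mature list were B2m and H2-K1. Ccr9 was at 494 ± 22.6 and 559 ± 29.4 normalized CPM (log2 fold change 0.18, SE 0.057, adjusted p = 0.216, edgeR). Ccr7 was at 435.5 ± 45.6 and 363 ± 24.2 normalized CPM (log2 fold change −0.26, SE 0.074, adjusted p = 0.135, edgeR).

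**Figure D5:**
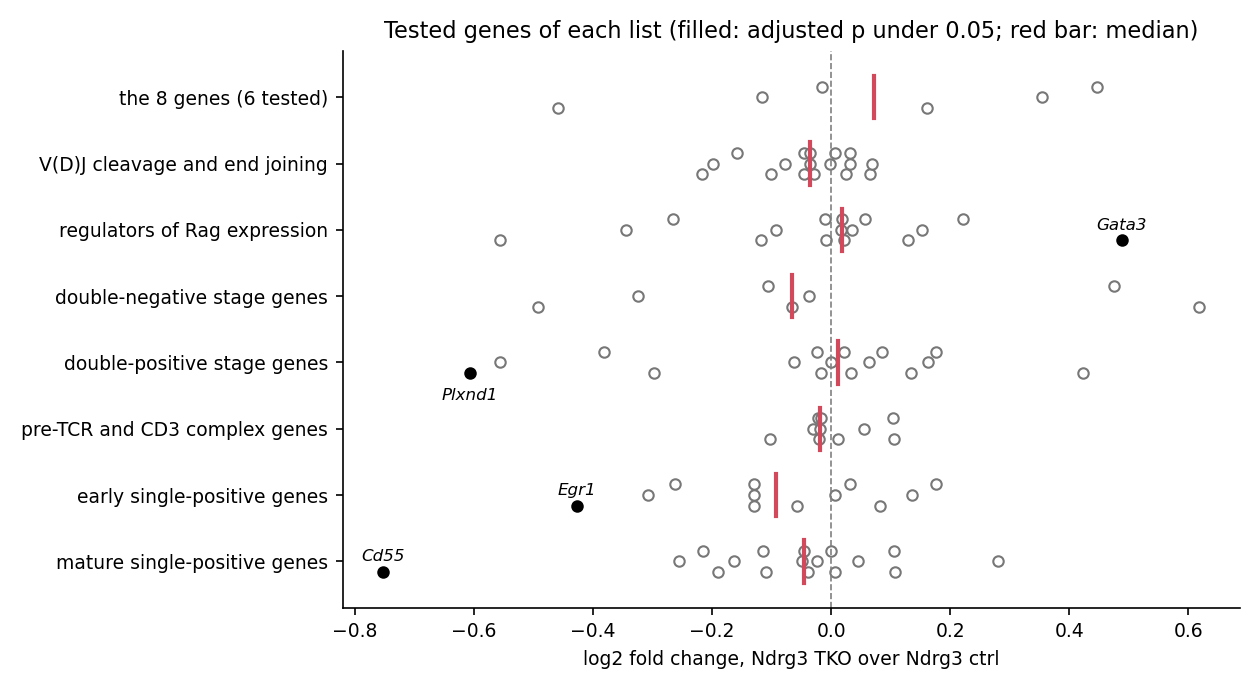
Log2 fold changes of Ndrg3 TKO over Ndrg3 ctrl for every tested gene of each list, 1 point per gene, with filled and named points for an adjusted p below 0.05 and a red bar for the median of the list. The medians lie between −0.093 and 0.072, and 4 genes are filled, of which Gata3 lies above 0 and Plxnd1, Egr1 and Cd55 lie below.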

How the data were processed

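RNA was extracted from sorted thymocytes and sequenced with a stranded total RNA kit after ribosomal RNA removal. Per the labels and the study's methods, the authors used the snakePipes pipeline, trimmed reads with cutadapt, aligned them to GRCm38.p4 (release M9) with STAR and counted them per gene with featureCounts. They deposited raw counts, whole numbers that are not normalized, for 47937 genes; the versions of these 3 tools and the strand setting are not given in the sources used here. All 8 sample columns were used. Groups and replicate numbers came from the labels.

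Symbols, positions and exonic lengths came from GENCODE M21 (GRCm38), which matched 98.5% of the identifiers. Genes were filtered with filterByExpr, scaled by TMM and tested with edgeR 4.0.16 in R 4.3.3 (glmQLFit with robust estimation, glmQLFTest), with Benjamini-Hochberg adjustment and a threshold of 0.05. Each SE was taken from the log2 fold change and the F statistic of its test. Correlations used log2 CPM with a prior count of 2. The procedure was tested on simulated data. No 2 libraries of a group agreed within sampling noise. Alternatives covered DESeq2 1.42.0, other scalings and filters, a replicate block, Y-linked expression and leaving out each library.

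The 8 genes, the lists and the tests were chosen with earlier results of these data known. Genes named singly are the 8 genes, Ndrg3, Eomes and Cd4, the last read as a check of the sort. Also named are the called genes and 2 most abundant genes of each list, and the 5 genes most like Rag1. The most abundant markers of other cell types and those at 0 are named as well. Others are said to be chosen later or bear on the reads of the 8 genes.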

Additional observations from a re-analysis of the deposited data

Results flagged for a closer look

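Dntt in Ndrg3 ctrl replicate 1 was at 18.7 normalized CPM, apart from the other 3 control libraries at 14.2 to 14.8, and its gap to the nearest of them was 0.86 of the group's whole range, above the limit for 4 samples in Dixon's test. Without that library Dntt passed the threshold (adjusted p = 0.0285, edgeR).

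The summed normalized CPM of Sox11, Sox12 and Cd1d2 was 11.5 in Ndrg3 TKO replicate 4, against 16.8, 16.8 and 17.2 in the other Ndrg3 TKO libraries, a gap of 0.92 of the range. Of 62 groups of 4 libraries examined in this way, 2 stood out, where chance at 1 in 20 gives 3.1.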

How the results depend on the processing

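Of the 6 tested genes none was called as reported, and 1, Dntt, was called with DESeq2, without the filter on low counts and with Y-linked expression as a covariate, and 0 to 1 when single libraries were left out. The labels do not say that a replicate number marks a shared litter or day. After removing group means, the same-numbered libraries correlated at 0.240, 0.512, −0.0572 and 0.387 for replicates 1 to 4 (mean 0.27, against −0.088 for different numbers), and the libraries of replicates 1, 2 and 4 each correlated best with their own number while those of replicate 3 did not. They were therefore treated as unpaired, with this as a hint of pairing from the data. Replicate 3 was also the only number whose libraries differed in Y-linked counts, at 0.0681 CPM in Ndrg3 ctrl and 416.3 in Ndrg3 TKO. Ndrg3 TKO replicate 3 correlated best with Ndrg3 ctrl replicate 2 (0.194), which was high in these counts too. Whether Y-linked status lowered the correlation of replicate 3 was not tested, so these correlations do not decide whether the numbers mark pairs. With the replicate block, 1 of the 8 genes was called, Dntt (log2 fold change 0.45, adjusted p = 5.33e-04, edgeR), and 800 genes of the whole table (435 higher, 365 lower) against 168 (116 higher, 52 lower), 164 of them shared; the other 5 tested genes were not called. Over the whole table, DESeq2 called 309 genes (191 higher), the fit without a filter 274 (176 higher), that with the Y-linked covariate 437 (262 higher), and that on the 5 libraries low in Y-linked counts, which has fewer samples, 92 (73 higher); leaving out single libraries gave 90 (72 higher) to 158 (110 higher). Leaving out single libraries, the log2 fold change of Rag1 ran from −0.94 to 0.029, above 0 only without Ndrg3 ctrl replicate 1, and that of Sox4 from −0.094 to 0.068. Sox4 turned to 0.068 and 0.032 without Ndrg3 ctrl replicates 1 and 2, to 0.026 and 0.010 without Ndrg3 TKO replicates 2 and 4, and to 0.10 in the 5 libraries. Where the cause is not given above, the cause was not tested. Over all settings run, Dntt, Cd24a and Arpp21 stayed above 0 and Cd1d1 below. Rag2 and Ptcra, with 18 and 9 counts in all, are limited by depth.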

Other observations

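Among the markers of unconventional T cells, Klrb1c, which encodes the NK1.1 receptor in some mouse strains, had 8, 13, 6 and 3 counts in Ndrg3 ctrl and 47, 47, 61 and 66 counts in Ndrg3 TKO. It rose by a fitted log2 fold change of 2.62 (SE 0.36, adjusted p = 0.00149, edgeR) and was called in all 8 fits that left out 1 library. Cd160, a receptor of cytotoxic and intraepithelial lymphocytes, was at 28.3 ± 2.94 normalized CPM in Ndrg3 ctrl and 35.6 ± 4.00 in Ndrg3 TKO (n = 4, adjusted p = 0.121, edgeR), with no overlap of the groups, as for 3.44% of all tested genes with Ndrg3 TKO higher.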
